A study of Mus musculus with 7 samples.

Results

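Promoters without a called peak were examined in muscle stem cells (MuSCs), the resident stem cells of skeletal muscle, by ATAC-seq, which maps the DNA that a transposase can reach. The members are the protein-coding genes of chromosomes 1 to 19 that were chosen by the absence of peaks, with every annotated transcription start site (TSS) more than 1 kb from the peaks of all 7 libraries. These genes are called closed here, which means that no peak was called there, not that no tag fell there. The rule found 6243 of 20560 genes, or 30.4%, and 13220 genes (64.3%) had a promoter peak in all 7 libraries. The other 1097 genes (5.34%) had one in 1 to 6 libraries and are called open in some. Because the peaks themselves chose the members, the counts of closed genes below are a description without a test.

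The libraries came from 4 Nedd4L-cKO and 3 wild-type (WT) samples of 5000 cells each, sorted from the hindlimbs of male mice of 5 to 6 weeks. The cKO line carries Nedd4L fl/fl and Pax7 cre/+ on a C57BL/6 background, so that Cre made under the MuSC gene Pax7 removes an exon of the catalytic domain of Nedd4L, an E3 ubiquitin ligase. The gene is still transcribed in this line, and the alleles of the WT mice, other than the name, were not given in the sources used here. The study counts its replicates as mice, although the labels do not tie a library to a mouse. MACS2 kept 14429374 to 20084685 tags and called 69302 to 79158 peaks per library. Within a single library, 6589 to 6924 genes (32.0% to 33.7%) had no promoter peak, and both of these extremes were Nedd4L-cKO libraries. WT replicate 3 was the only library from the second sequencing lane.

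The Tn5 transposase of the assay cuts DNA that is free of nucleosomes, and a peak is a stretch with more cut ends than its local background. Active promoters lose nucleosomes next to the TSS. In vertebrates the promoters of genes used in every cell are mostly CpG islands, which tend to stay accessible, while promoters of genes used in a single tissue are often poor in CpG and open only in that tissue. Many such genes lie in tandem arrays of one family, among them the large arrays of chemoreceptor genes.

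The difference in letters between the promoter types is shown by the 250 bases before the TSS of a few genes, from RefSeq on GRCm38.p6, which is the assembly of mm10. Capitals mark CG dinucleotides. The first 4 belong to the families with the most closed genes, each being its member farthest from a peak. Olfr1170 is an olfactory receptor gene at chr2:88225031-88225280 (minus strand), Gm5891 a predicted gene at chr7:21921292-21921541 (minus), Vmn1r137 a vomeronasal receptor gene at chr7:21994337-21994586 (plus) and 1700049E17Rik1 a gene with a clone name at chr14:41924699-41924948 (plus). Pax7, the transcription factor that marks MuSCs, is given as an open promoter at chr4:139832969-139833218 (minus).
Olfr1170: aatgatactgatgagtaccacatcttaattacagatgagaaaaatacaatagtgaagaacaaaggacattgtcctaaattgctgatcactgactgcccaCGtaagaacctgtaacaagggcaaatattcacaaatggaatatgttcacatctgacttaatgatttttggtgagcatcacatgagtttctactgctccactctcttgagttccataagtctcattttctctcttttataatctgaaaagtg
Gm5891: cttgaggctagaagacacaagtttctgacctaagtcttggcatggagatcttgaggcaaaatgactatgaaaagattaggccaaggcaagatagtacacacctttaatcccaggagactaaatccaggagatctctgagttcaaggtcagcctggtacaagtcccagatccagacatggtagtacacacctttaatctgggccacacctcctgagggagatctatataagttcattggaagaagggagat
Vmn1r137: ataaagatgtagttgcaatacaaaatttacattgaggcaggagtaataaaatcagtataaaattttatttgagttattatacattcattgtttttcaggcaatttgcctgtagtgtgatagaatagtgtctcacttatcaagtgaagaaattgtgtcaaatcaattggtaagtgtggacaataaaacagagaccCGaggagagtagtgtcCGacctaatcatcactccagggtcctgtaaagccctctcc
1700049E17Rik1: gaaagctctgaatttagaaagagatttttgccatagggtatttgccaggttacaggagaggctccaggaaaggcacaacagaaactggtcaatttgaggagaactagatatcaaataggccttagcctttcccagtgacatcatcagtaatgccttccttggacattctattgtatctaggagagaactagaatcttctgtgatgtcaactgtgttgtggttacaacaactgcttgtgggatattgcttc
Pax7: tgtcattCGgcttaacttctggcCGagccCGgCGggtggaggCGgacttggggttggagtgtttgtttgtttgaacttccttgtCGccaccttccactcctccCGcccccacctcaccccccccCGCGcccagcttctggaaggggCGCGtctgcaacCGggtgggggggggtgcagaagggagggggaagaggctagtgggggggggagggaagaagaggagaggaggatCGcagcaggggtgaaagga

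These 4 closed promoters held 0 to 2 CpG in 250 bases, and the open promoter of Pax7 held 13. In closed Olfr and Vmn1r windows, 72.2% and 87.8% of annotated TSSs stood at an ATG, the start codon. Whether this held for Olfr1170 and Vmn1r137 was not examined, and their TSSs may lie farther upstream than the bases printed show. The next 3 promoters were picked after their values were seen, to show tissue genes of both kinds. Alb, which encodes serum albumin of the liver, lies at chr5:90460620-90460869 (plus), and Prm1, which encodes a protamine that packs sperm DNA, at chr16:10796824-10797073 (minus). Drd5, a dopamine receptor gene at chr5:38319259-38319508 (plus), has a promoter with 35 CpG that was nevertheless closed.
Alb: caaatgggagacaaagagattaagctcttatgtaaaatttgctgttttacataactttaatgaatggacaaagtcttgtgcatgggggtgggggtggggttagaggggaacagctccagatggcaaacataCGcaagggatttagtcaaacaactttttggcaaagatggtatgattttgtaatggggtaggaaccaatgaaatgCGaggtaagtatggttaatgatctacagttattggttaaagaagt
Prm1: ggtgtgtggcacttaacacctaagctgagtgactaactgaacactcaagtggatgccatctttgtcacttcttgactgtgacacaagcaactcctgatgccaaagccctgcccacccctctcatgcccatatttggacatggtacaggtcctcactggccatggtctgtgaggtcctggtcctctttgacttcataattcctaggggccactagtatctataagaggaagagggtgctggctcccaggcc
Drd5: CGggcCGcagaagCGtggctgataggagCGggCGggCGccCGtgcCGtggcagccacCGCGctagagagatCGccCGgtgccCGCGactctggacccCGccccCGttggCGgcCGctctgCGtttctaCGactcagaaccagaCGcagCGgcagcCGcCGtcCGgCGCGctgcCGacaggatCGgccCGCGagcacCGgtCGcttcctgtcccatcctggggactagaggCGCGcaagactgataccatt

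The label was also read at marker genes of the sorted cells and of other cell types. This is a description and no check of the label, since the same peaks set it. Of 12 MuSC markers, 0 were closed, and all 12 had a promoter peak in all 7 libraries: Pax7, Myf5 and Myod1, the transcription factors of the lineage, Itga7 and Vcam1, its surface proteins, and Cdh15, Sdc4, Calcr, Chodl, Cxcr4, Spry1 and Heyl. Of 8 blood cell markers, 8 were closed, among them Ptprc (CD45) and Itgam (CD11b), which the sort selected against, and Cd3e and Cd79a of lymphocytes. The nearest peak to Ptprc was 130234 to 130310 bp away in the 7 libraries. For Spi1, which encodes the myeloid transcription factor PU.1, it was 1132 to 1627 bp away, so this promoter lay just outside the limit of 1 kb.

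Endothelial markers were split. Pecam1 (CD31, also selected against), Cdh5, Tie1, Emcn and Vwf were closed, whereas Kdr, Cldn5 and Egfl7 had a promoter peak in all 7 libraries, which makes 5 closed of 8. Of the 6 markers of fibro-adipogenic progenitors, the mesenchymal cells of muscle, Pdgfra and Ly6a (SCA1) were closed, Dpp4 and Col15a1 were open in all 7, Dcn was open in 5 libraries and Lum in 1. Of 12 myofiber genes, 2 were closed. These were Myh7, the myosin of slow fibers, with the nearest peak 2108 to 2218 bp away, and Mb, which encodes myoglobin, with the nearest peak 2719 to 3249 bp away. Other myofiber genes such as Acta1, Myh1, Myh4, Mylpf, Pvalb and Actn3 had a promoter peak in all 7 libraries, and Ckm in 5. The part of other cell types in these peaks was not tested.

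Most markers of distant tissues were closed. The counts were 6 of 8 for liver, 7 of 8 for pancreas and pituitary, 5 of 6 for skin, 4 of 6 for photoreceptors, 7 of 8 for male germ cells, 6 of 7 for oocytes, and 4 of 6 for pluripotent cells. Ins1, the insulin gene on chromosome 19, lay 411795 to 658906 bp from a peak, and Ins2, on chromosome 7, 3718 to 15012 bp. Pou5f1 and Nanog, the transcription factors of pluripotent cells, lay 7297 to 7582 bp and 4053 to 4374 bp from the nearest peak. Zfp42, another gene of that state, lay 692200 to 1372602 bp away. The markers of the distant tissues that were open in all 7 libraries were Rom1, Dazl, Gdf9 and Utf1. Neuronal genes were closed less fully, at 3 of 8: Rbfox3, Nefl and Stmn2 were closed, while Snap25, Syt1, Slc17a7 and Gad2 had a promoter peak in all 7.

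Chemoreceptors were the largest group of closed genes. Of 1504 annotated olfactory, vomeronasal, bitter taste and trace amine receptor genes, 1484 were closed, which is 23.8% of all closed genes. Without them 25% of the remaining 19056 genes were closed. Olfactory receptors (the Olfr genes), which detect odorants in the nose, were closed in 1086 of 1103 cases on 16 chromosomes. Vomeronasal receptors, which detect pheromones, were closed in 228 of 229 cases (type 1, Vmn1r) and 121 of 122 (type 2, Vmn2r). Bitter taste receptors (Tas2r) were closed in 34 of 35 cases and trace amine receptors (Taar) in 15 of 15. Mas-related receptors (Mrgpr), which serve itch and pain neurons and are not counted in that total, were closed in 18 of 20 cases.

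Families of skin and hair followed. All 35 genes of the cornified envelope (Lce and Sprr) were closed, as were 49 of 56 keratin-associated protein genes (Krtap), which build hair, and 46 of 53 keratins. Keratins lay near peaks, with a median distance of 16543.5 bp over the closed members, against 114511 bp for the cornified envelope. Among antimicrobial peptides, 29 of 29 alpha-defensins (Defa) of the gut and 40 of 42 beta-defensins (Defb) were closed.

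Genes of reproduction and lactation were closed nearly throughout. This held for 26 of 26 genes of the prolactin family (Prl), most of them placental hormones, 12 of 13 pregnancy-specific glycoproteins (Psg), 5 of 5 caseins, 22 of 22 major urinary proteins (Mup), which carry pheromones, and 39 of 40 secretoglobins (Scgb). In germ cells and early embryos, the Pramel family had 44 of 45 genes closed, Obox 6 of 6 and Speer 10 of 10. Of the Nlrp genes, which serve oocytes in part and inflammasomes in part, 18 of 18 were closed.

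Several enzyme families of liver, kidney and gut stood above the share over all genes. Cytochrome P450 genes (Cyp) were closed in 73 of 99 cases, UDP glucuronosyltransferases in 19 of 22, sulfotransferases in 18 of 21, carboxylesterases in 18 of 19 and serpins, the inhibitors of serine proteases, in 45 of 62. Solute carriers (Slc) were closed in 90 of 362 cases (24.9%), below the share over all genes. Immune families were divided. Killer lectin receptors of natural killer cells (Klr) were closed in 25 of 27 cases, C-type lectins in 27 of 33 and genes with the prefixes of type I interferons in 16 of 20. The prefix Ifna also matches the Ifnar genes of the interferon receptor, and none of these was among the 16 closed genes. For cytokines the counts were lower, with 43 of 78 interleukins and their receptors and 20 of 36 chemokines.

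**Figure D1:**
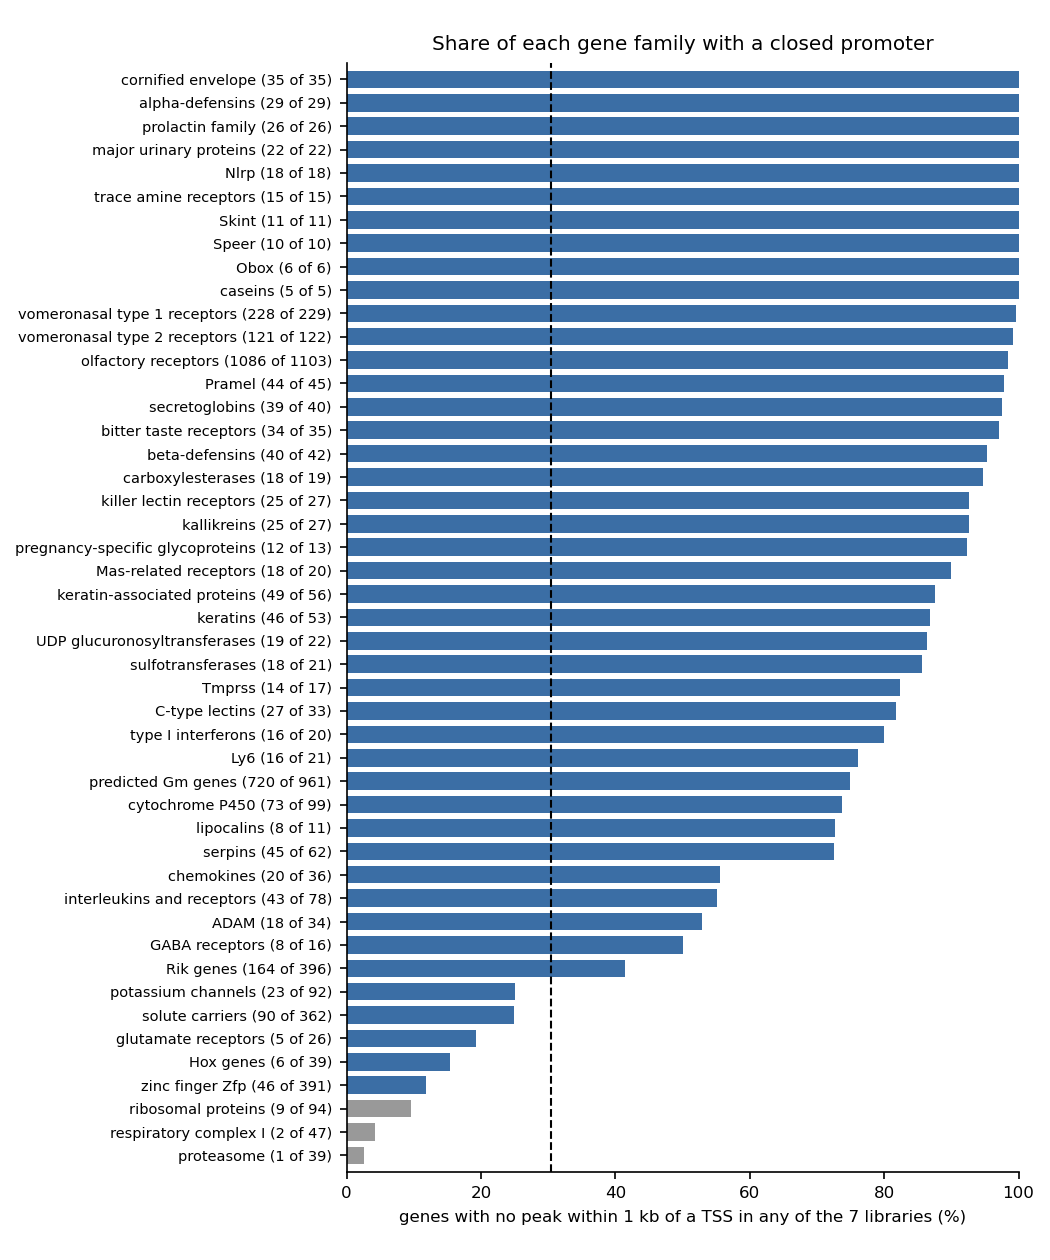
Share of the genes in each family whose promoter was closed in all 7 libraries, in percent, with the number closed and annotated in parentheses. The dashed line is the share over all 20560 genes (30.4%), and grey bars are the 3 families taken for contrast, which lie at 2.56% to 9.57%.

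Families of ion channels and transmitter receptors were closed less often than the chemoreceptors. Potassium channel genes (Kcn) were closed in 23 of 92 cases (25%) and glutamate receptors in 5 of 26 (19.2%), beside 30.4% of all genes. GABA receptors stood above that share, at 8 of 16 (50%). Hox genes, which regulate development, were closed in 6 of 39 cases and zinc finger genes with the prefix Zfp in 46 of 391. Both lay below the share over all genes. The closed Hox genes were Hoxa2, Hoxb2, Hoxb3, Hoxb6, Hoxd4 and Hoxd12, with a median distance to the nearest peak of 2045.5 bp, and the outer end alone was known for the 3 of the Hoxb cluster. Genes with predicted or clone names (Gm, Rik and LOC) were closed in 64.6% of cases, against 27.9% of the named genes, and made up 909 of the closed genes (14.6%). Transcripts of such names often rest on prediction alone, and how far their TSSs are misplaced was not tested.

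In the families taken for contrast, few genes were closed and most of these bore the name of a related copy. Of 94 genes with the prefix Rpl or Rps, 9 were closed, among them Rpl10l and Rpl39l, copies used in testis, Rpl3l, a copy used in striated muscle, Rps6kl1, a kinase-like gene that shares the prefix, and Rpl31-ps12, named as a pseudogene. The only closed proteasome gene of 39 was Psma8, the subunit of the testis proteasome. Of 47 Nduf genes of respiratory complex I, Ndufb4b and Ndufb4c were closed. Rpl17 was closed with a peak 1104 to 1166 bp from the outer end of its span, the only TSS known for it here.

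Some members of closed families were open. In the 14 families with at least 20 genes and at least 90% closed, 30 genes had a promoter peak, 16 of them in all 7 libraries. The strongest was Pramel12, with fold enrichments over local background of 6.32 to 7.71, followed by Vmn1r4 (5.81 to 6.46), Vmn2r29 (4.99 to 7.07), Olfr94 (4.99 to 5.76) and Scgb1c1 (4.22 to 4.91). The peak of Vmn1r4 also held a TSS of Nt5c3, a nucleotidase gene, and was the only one of the 30 to hold the TSS of another gene.

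Closed genes lay side by side. Both neighbours of a closed gene on its chromosome were closed in 49.6% of cases, against 3.49% for the other genes. The closed genes formed 2399 runs of consecutive closed genes, of which 1643 held a single gene, and 91 runs of 10 or more genes held 2419 genes (38.7%). The share closed by chromosome ran from 21.8% on chromosome 12 to 44.7% on chromosome 7, which carries 905 closed genes in large Olfr and Vmn1r arrays.

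The longest run was an olfactory receptor array of 192 genes from Olfr1034 to Olfr1274 at chr2:86046444-90401674, of which 190 were Olfr genes. It spanned 4.36 Mb and held 0 peaks in each of the 7 libraries. The second, from Ceacam20 to Vmn1r183 at chr7:19965352-24055691, held 106 genes, 86 of them Vmn1r, and had 1 peak in WT replicate 1 and 1 in WT replicate 3. The third was an array of 90 genes, 79 of them Olfr, at chr7:102698216-104190205, again with 0 peaks. The next in length, Olfr99 to Rhag on chromosome 17 (59 genes) and Olfr765 to Olfr827 on chromosome 10 (57 genes), each held 1 or 2 peaks per library.

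Other long runs were not empty of peaks. The defensin array at chr8:19903378-21974055 (49 genes, 2.07 Mb) held 15 to 18 peaks per library, and 13 of its 21 merged regions were called in all 7. The keratin array from Krt24 to Krtap9-5 on chromosome 11 (46 genes, 0.670 Mb) held 5 to 8 peaks per library. The array of cornified envelope genes on chromosome 3 (40 genes) held 0 to 2.

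**Figure D2:**
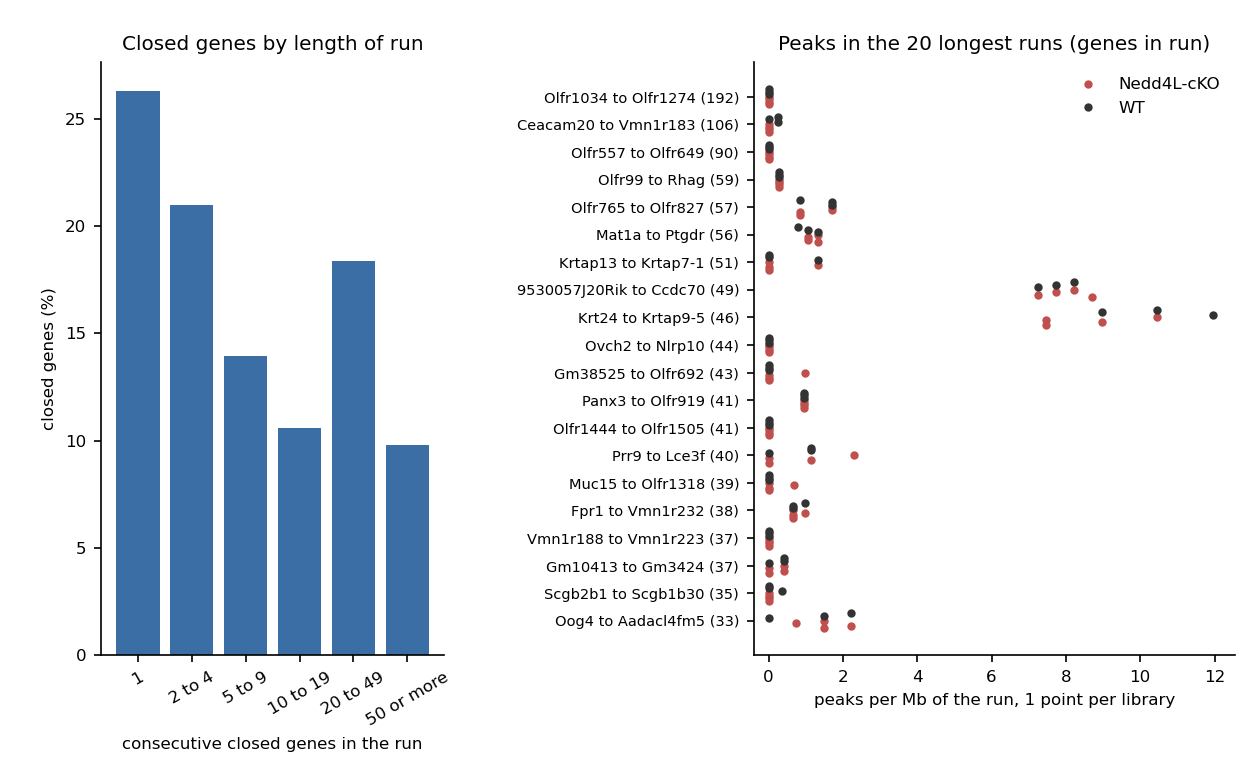
Left, share of the closed genes by the number of consecutive closed genes in their run. Right, peaks per Mb in the 20 longest runs, 1 point per library, with the genes of the run in parentheses; the defensin and keratin arrays stand at over 7 peaks per Mb and the longest olfactory receptor array at 0.

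The distance from the nearest TSS of a closed gene to the nearest peak of any library had a median of 33587 bp, with quartiles of 6429.5 and 164942 bp. The rule set only its lower limit. Of the closed genes, 661 (10.6%) had a peak within 2.5 kb, 1959 (31.4%) within 10 kb, and 2053 (32.9%) none within 100 kb. For 213 genes (3.41%) the nearest peak was over 1 Mb away. At the limit itself, Spata48 and Il12a were closed with a peak 1005 and 1006 bp away, while Gng3 and LOC115488765, at 1000 and 999 bp, were each open in 1 library.

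The families differed widely in this distance. The median was 744631 bp for the caseins, 513530 bp for the Mup genes, 496700 bp for the secretoglobins, 353622 bp for Pramel and 196903 bp for the olfactory receptors, 725 of which lay over 100 kb from a peak. It was 7711 bp for the interleukins and their receptors, 8773 bp for the chemokines, 10249 bp for the solute carriers and 6981 bp for the potassium channels, so that closed genes of these families usually had a peak nearby. For trace amine receptors, which form a single array, it was 18206 bp, and 0 of the 15 genes lay over 100 kb away.

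**Figure D3:**
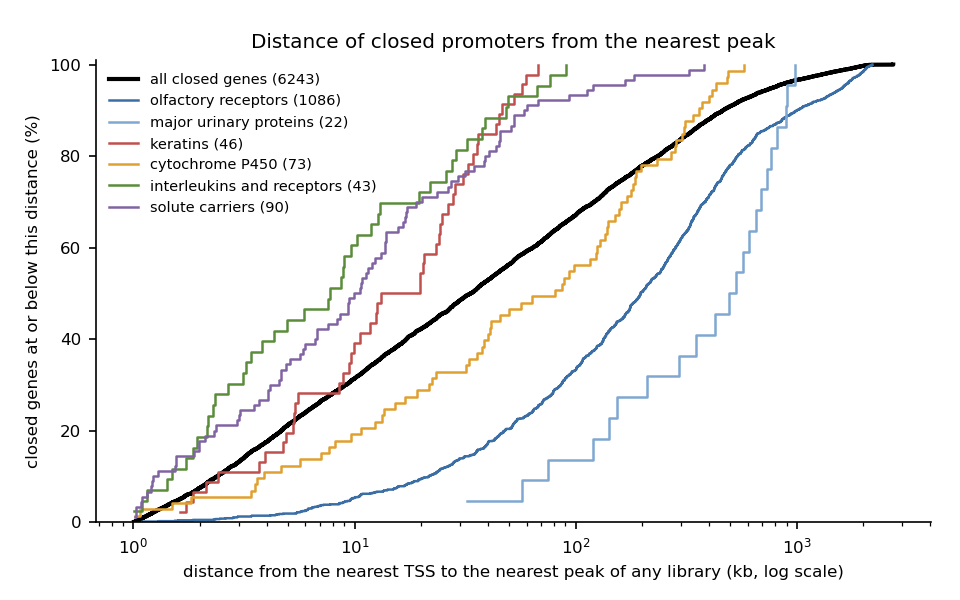
Share of closed genes (percent) at or below a given distance from the nearest TSS to the nearest peak of any of the 7 libraries, in kb on a log scale, for all closed genes and 6 families with the number of closed genes in parentheses. The curve of the major urinary proteins lies farthest right and that of the interleukins and their receptors farthest left, around medians of 513530 and 7711 bp.

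The closed gene farthest from any peak was Cdh8, a cadherin gene of neurons on chromosome 8 with 393196 bp of span. Its nearest peak was 2735700 bp away in WT replicate 3 and 3022612 to 3023008 bp away in the other 6 libraries. The next were Olfr1170, Olfr1173, Olfr1168 and Olfr1176, all from the middle of the chromosome 2 array. Olfr1170, whose promoter is printed above, lay 2203055 to 2203124 bp from a peak in all 7 libraries.

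Peaks inside the gene body, more than 1 kb from every TSS of the gene, were not used by the rule. Of the closed genes, 1443 (23.1%) had such a peak in at least 1 library, 1003 (16.1%) in each of the 7, and 4800 (76.9%) in none. Any span beyond 1 kb of the TSS was present in 4967 of the 6243 genes. Length went with this, as the genes with a body peak had a median span of 25202 bp and those without 4231 bp. The body peaks merged into 4092 regions, 2099 of which (51.3%) occurred in all 7 libraries, against 56.0% of the 95163 regions of the genome. Only 148 of them (3.62%) lay at the TSS of another protein-coding gene.

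Joined over all closed genes, the bodies covered 169 Mb and held 16.7 to 19.4 peaks per Mb in the 7 libraries, with a mean of 17.5 ± 0.91 (SD, n = 7). The bodies of all other genes held 37.4 to 44.2, with a mean of 39.5 ± 2.22. The density was lower in closed genes in 7 of 7 libraries, with differences of -24.8 to -20.8 peaks per Mb. This comparison was added after the data were seen and is given without a test, since the same peak lists chose the genes. Over the genes with an entry in the promoter table alone, the density was 14.7 ± 0.855 in closed genes, 18.5 ± 1.16 in genes open in some libraries and 40.6 ± 2.31 in genes open in all 7. In these densities, a promoter peak of an open gene that ran past 1 kb from the TSS was counted as a body peak. Closed genes have no such peaks by the rule, which can widen the gap, and the part of this was not tested. The body peaks of closed genes were not weaker than those of the others. Their median fold enrichment stood at percentile 47.7 to 49.9 of all peaks of its library, against percentile 43.0 to 43.8 in the others, and was higher in 7 of 7.

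Most olfactory and vomeronasal type 1 receptor genes are too short for a body peak, since only 294 of 1086 and 40 of 228 closed members have any span beyond 1 kb of the TSS. Body peaks were found in 2 and 0 of them. Vomeronasal type 2 receptors are longer, with a median span of 24544 bp, and 0 of the 121 closed genes had one. Solute carriers, with a median span of 25615.5 bp, had one in 46 of 90 closed genes, interleukins and their receptors in 16 of 43, and keratins in 12 of 46. Among single genes, Pde4d, which encodes a cAMP phosphodiesterase, had the most regions called in all 7 libraries, 36, and 48 to 58 body peaks per library. Tenm3, a teneurin of neuronal adhesion, had 24 such regions, Nedd4l and Zfp469 23 each and Arhgap15, which encodes a GTPase-activating protein, 18. The reverse was found in Cntn5, Kcnip4, Nrg3, Cntn4 and Marchf1, the longest closed genes without any body peak, with spans of 1270553, 1135620, 1108134, 1022510 and 854833 bp. Of these, Cntn5 and Cntn4 encode contactins of neurons, Kcnip4 a potassium channel subunit and Nrg3 a neuregulin.

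Nedd4l, the gene targeted in the cKO, was itself among the closed genes. Only the outer end of its span was known here, and the nearest peak lay 2537 to 2590 bp from it in the Nedd4L-cKO and 2317 to 2549 bp in the WT libraries. In its body there were 31, 34, 33 and 35 peaks in Nedd4L-cKO replicates 1 to 4 and 34, 34 and 33 in WT. The libraries overlap, and since the deletion removes a single exon, these peaks do not check the genotype. The outer end alone was known for 1280 closed genes (20.5%), including all of chromosome 18, and their internal TSSs, if any, were counted as gene body. Of them, 27.7% had a body region called in all 7 libraries, against 13.4% of the closed genes in the promoter table. Zfp469 belongs to the former as well. Of the genes in the promoter table, those with 1 TSS were closed in 43.1% of cases and those with 2 or more in 16.4%.

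Base composition was not used by the rule. It was read in windows of 300 bases, 250 before and 50 after the TSS, for the 16457 genes in the promoter table, 4963 of which were closed. Each window took the class of its gene, so the windows of an open gene may include some without a peak. The windows of closed genes (n = 5415) held a median of 2 CpG, with quartiles of 1 and 5, those of genes open in some libraries 7, and those of genes open in all 7 libraries 20, with quartiles of 11 and 29. Their median GC content was 45.7%, 55.0% and 61.0%, in that order. The share of closed windows fell from 76% of windows with 0 to 3 CpG through 43.0% (4 to 7), 15.1% (8 to 14) and 2.98% (15 to 24) to 1.47% of windows with 25 or more. Without the chemoreceptors, the closed windows still held a median of 3 CpG.

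**Figure D4:**
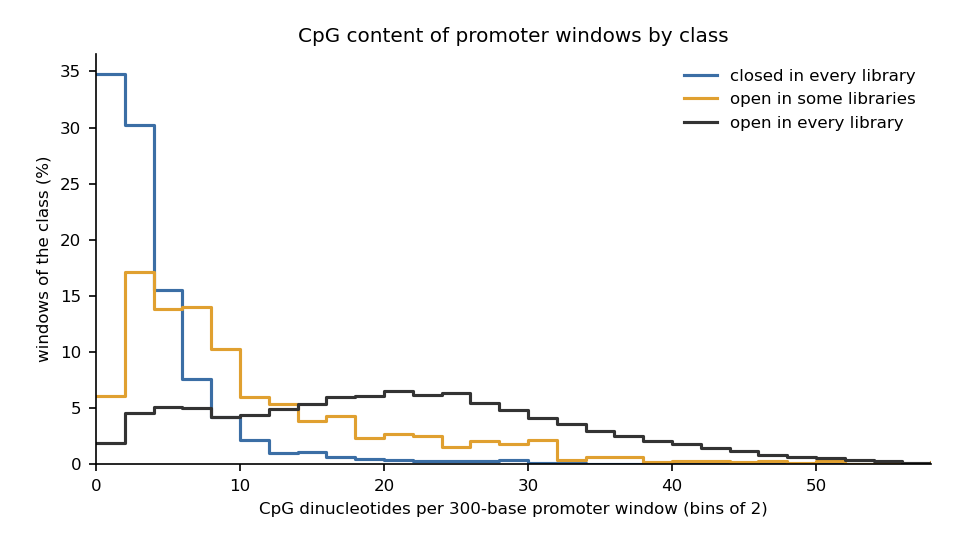
Share of promoter windows (percent) by the number of CpG dinucleotides per 300 bases, in bins of 2, for genes closed in all 7, open in some and open in all 7 libraries. Windows of closed genes pile up at the left, with a median of 2 CpG, while windows of genes open in all 7 libraries spread around a median of 20.

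The TATA box, the motif that places the start of many tissue genes, was searched for as the letters TATAAA on both strands. It was present in 27.0% of closed windows, 11.3% of windows of genes open in some libraries, 7.18% of windows of genes open in all 7 and 12.7% of all windows. Closed windows are richer in A and T, and the part of this in the difference was not tested. For TATAAA on the gene's strand that lay whole between 40 and 16 bases before the TSS, the shares were 5.80%, 2.96% and 1.28%. Keratin-associated proteins stood out with 64.4% of 45 closed windows by the stricter count, followed by alpha-defensins (43.8% of 16), keratins (36.4% of 33) and the cornified envelope (32.4% of 34). For the first 2 such Krtap genes by symbol on chromosomes 16 and 11, the 60 bases before the TSS are given with TATAAA in capitals. They are Krtap16-3 at chr16:88962874-88962933, Krtap19-9b at chr16:88932265-88932324, Krtap1-4 at chr11:99583678-99583737 and Krtap1-5 at chr11:99581017-99581076, all on the minus strand.
Krtap16-3: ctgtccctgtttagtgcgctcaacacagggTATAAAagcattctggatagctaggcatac
Krtap19-9b: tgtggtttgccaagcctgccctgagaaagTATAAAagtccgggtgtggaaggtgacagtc
Krtap1-4: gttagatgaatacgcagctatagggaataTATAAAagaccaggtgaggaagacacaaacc
Krtap1-5: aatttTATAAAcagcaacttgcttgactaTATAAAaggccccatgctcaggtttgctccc

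TATAAA began 30 or 31 bases before the TSS in each of the 4 promoters, and Krtap1-5 held another match from 55 bases before it. These 4 genes had no peak within 1 kb although they carry this core element, and Krtap16-3 had one 1438 bp away.

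Limits of the annotation and of the alignment also differed between families. The annotated TSS coincided with an ATG, the start codon, in 23.9% of closed windows, against 1.49% of windows of genes open in all 7 libraries. This applied to 72.2% of Olfr, 87.8% of Vmn1r and 87.8% of Vmn2r windows, so that the annotation starts at the coding sequence and the TSS may lie farther upstream. Of the 1294 closed genes concerned, 1184 (91.5%) lay over 10 kb from any peak. An exact copy of the first or last 150 bases elsewhere in GRCm39, where a read has more than one place to map, was found for 11.4% of closed windows and 0.561% of windows of genes open in all 7. It was most frequent in alpha-defensins (87.5% of 16) and rare in olfactory receptors (1.72%), with 36.1% in Vmn1r. Of the families named above as far from peaks, such a copy was found for 50% of 14 Mup, 33.3% of 36 Pramel and 22.6% of 31 secretoglobin windows. It was found for 0% of 3 casein windows. The part of copied sequence in the lack of peaks was not tested.

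Not every closed promoter was poor in CpG. At 15 or more CpG per window there were 194 closed genes, 158 of them with a proper name and 172 without a copied end. Those highest in CpG without a copy included genes of neurons, such as Apba2 (45 CpG), Gjd2 (41, a connexin of electrical synapses), Drd5 (38), Nrg3 (36) and Syt10 (35, a synaptotagmin), and genes of germ cells, such as Ddx4 (38, an RNA helicase), Hsf5 (34), Fkbp6 (32) and Stk31 (29). Genes of other organs among them were Cftr (31), the chloride channel of epithelia, Irx4 (31), a transcription factor of the heart, and Ihh (30), a hedgehog ligand of cartilage. The names were picked after their values were seen. The nearest peak to Drd5, whose promoter is printed above, lay 10092 to 11256 bp away in the 7 libraries, that to Ddx4 7512 to 7637 bp, and that to Nrg3 over 1 Mb away. For Ihh it was 1266 bp.

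The last comparison asked whether the surroundings of the closed genes differed between the genotypes. Closed genes with a body peak numbered 1167, 1195, 1183 and 1291 in the Nedd4L-cKO replicates 1 to 4, and 1220, 1213 and 1214 in WT. The means were 1209 ± 55.9 (SD, n = 4) and 1216 ± 3.79 (n = 3), a difference of -6.67 (exact permutation test over 35 splits, two-sided, p = 0.914). The median distance to the nearest peak was 46614, 45817, 45541 and 40446 bp in Nedd4L-cKO and 43291, 45356 and 43835 bp in WT, a difference of 444 bp between means of 44604.5 ± 2809 and 44161 ± 1070.3 bp (exact permutation p = 0.857). The rule had set a lower limit of 1 kb on this distance in all 7 libraries, so the distance test is not independent of the choice of genes. The density of body peaks was 16.7, 17, 17.1 and 19.4 per Mb in Nedd4L-cKO and 17.6, 17.3 and 17.5 in WT, a difference of 0.0566 (exact permutation p = 1). The groups overlapped in all 3 measures, Nedd4L-cKO replicate 4 lay apart from the other 3 cKO libraries in each, and the adjusted p was 1 for each of the 3 exact tests. The smallest p that 35 splits allow is 0.0286. Within lane 1 alone, which leaves 2 WT libraries, the differences were -7.5 genes, 281 bp and 0.0752 peaks per Mb (exact permutation p = 0.933, 0.867 and 1). Nedd4L-cKO replicate 4 had the most tags kept and the most peaks, and the part of depth in its values was not tested. Without it the groups did not overlap in any of the 3 measures, and the differences were -34.0 genes, 1830 bp and -0.576 peaks per Mb, each with an exact permutation p of 0.1, the smallest that 3 against 3 libraries allow. Without it the groups were also apart in all peaks called, at 69302 to 71071 in Nedd4L-cKO and 71575 to 72350 in WT. The body density of open genes was apart too, at 37.4 to 38.9 against 39.1 to 39.8 per Mb. The separation was thus not particular to closed genes, and the part of the peak number in it was not tested.

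**Figure D5:**
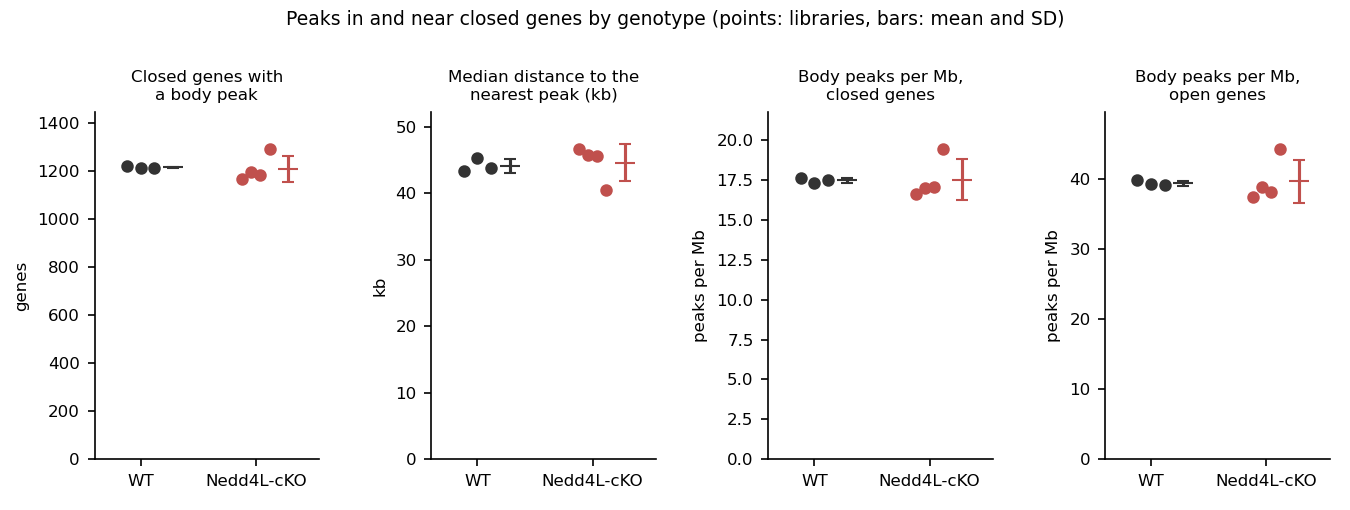
From left to right, closed genes with a body peak, the median distance of closed genes to the nearest peak in kb, and body peaks per Mb in closed and in open genes. Points are the 3 WT and 4 Nedd4L-cKO libraries and the marks beside them the mean and SD; the cKO library at 1291 genes is replicate 4.

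For regions called in all 7 libraries, the rank of the fold enrichment within its library was compared between the genotypes with limma over 53245 regions. At an adjusted p under 0.05, 0 regions were called (0% of the background), and so 0 of the 2099 body regions of closed genes. At an unadjusted p under 0.05 there were 82 of 2099 body regions (3.91%), 35 higher and 47 lower in Nedd4L-cKO, beside 3.98% of all regions. The body region with the lowest p lay in Akap6, which encodes an anchoring protein of the nuclear envelope in muscle, at chr12:52867683-52868577. It stood at percentiles 16.7, 30.9, 35.3 and 38.4 in the Nedd4L-cKO and 61.3, 70.3 and 73.4 in the WT libraries, and limma gave an adjusted p of 1.00. The groups did not overlap in this region, which was chosen for its low p.

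The other 3 body regions named by this rule did not pass the limma test either. In Alpk2, an alpha kinase gene, the region at chr18:65300548-65301820 stood at percentile 18.8 ± 9.40 (SD, n = 4) in Nedd4L-cKO and 69.0 ± 23.5 (n = 3) in WT. Higher in Nedd4L-cKO were a region in Lrrc43 at chr5:123497923-123498698 (58.1 ± 10.2 against 24.3 ± 8.93) and one in Slc34a1, a phosphate transporter gene of the kidney, at chr13:55404545-55406148 (72.0 ± 7.20 against 46.0 ± 4.07). The limma adjusted p was 1.00 for each.

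A peak in every library of one genotype and none of the other was found for 8 body regions of closed genes. Called in the 4 Nedd4L-cKO libraries alone were 5 of 4092 (0.122%), in 9430069I07Rik, Mtss1, Arhgap15, Pabpc1l and Gsap, against 66 of all 95163 regions (0.0694%). Called in the 3 WT libraries alone were 3 (0.0733%), in Lrrc72, Myh7b and Abcc12, against 78 (0.0820%). Their fold enrichments were low, from 2.31 to 4.06, and 0 of the 8 reached a -log10 q of 5 in the libraries that called them. The highest was the region in Arhgap15 at chr2:43788403-43788906, with fold enrichments of 3.17 to 4.06.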

How the data were processed

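ATAC-seq was done by the authors by the OMNI-ATAC protocol, with 5000 sorted MuSCs in each library. According to the study's methods and the submitters' processing notes, adapters were trimmed with Trimmomatic 0.39, reads were aligned to mm10 with BWA 0.7.17 and filtered by mapping quality with SAMtools, and duplicates were removed with Picard 2.26.3. Per the file headers, peaks were called in each library on its own with MACS2 2.2.7.1 with the broad option (shift of -100 bp, extension to 200 bp), q cutoffs of 0.1 (broad) and 0.05 (narrow), and 1 tag kept per position. Of the deposited columns, the pileup is a tag signal without depth scaling and the fold enrichment a ratio over local background. The p-value and q-value deposited for each peak are on the -log10 scale, and the score, which the authors' caller derives from the q-value, was not used. No 2 libraries shared a peak with equal ends and pileup.

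Genes came from RefSeq on GRCm38.p6. TSSs were those of the RefSeq promoter table together with the outer 5′ end of the gene span. For 3799 genes outside the promoter table the strand came from GENCODE by symbol and chromosome, on GRCm39, from which no coordinate was used (it was the same for 99.3% of 14773 genes compared), and for 304 genes without a strand both ends had to be without a peak. Of 20665 listed genes, 105 listed before base 3000000 of a chromosome, where no peak lies, were left out. A peak within 1 kb by 1 bp or more opened a promoter. Families were defined by symbol prefix. Peaks of the 7 libraries that overlapped were merged into regions. All positions are 1-based mm10 coordinates.

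Per-library values were compared by two-sided exact permutation tests over 35 splits with Benjamini-Hochberg adjustment over 3 tests. Regions called in all 7 libraries were compared by limma 3.58.1 (R 4.3.3) on normal scores of ranks by fold within a library, with adjustment over all regions, since fold and pileup are set within each library. The limma script was tested on simulated data. By rule, the text names 5 genes each by distance, by body regions and by span without a peak, the 5 longest runs, 2 genes on each side of 1 kb, 5 open members of closed families, all markers and 4 body regions by limma p. Other names were chosen after their values were seen. The members, families, markers and tests were chosen with earlier results of these data known. Python 3.11.15 with scipy 1.17.1 was used otherwise. Alternatives changed the window, peak cutoff, gene set, rank measure, replicate block or libraries. Depth is the 14429374 to 20084685 tags kept per library, and a weak opening below the cutoff of MACS2 was not detectable at this depth.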

Additional observations from a re-analysis of the deposited data

Results flagged for a closer look

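Among 6 measures checked in the 4 Nedd4L-cKO libraries, the density of peaks in the bodies of closed genes stood out in replicate 4. It had 19.4 peaks per Mb against 16.7 to 17.1 in the other 3, and its gap to the nearest of them was 0.856 of the range of the group, above Dixon's 95% limit for 4 samples. By chance about 1 in 20 such groups passes this limit. The same library had the most tags kept (20084685) and the most peaks (79158), and its density in the bodies of open genes was also the highest, at 44.2 per Mb. The part of depth in this value was not tested.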

How the results depend on the processing

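The number of closed genes moved from 6243 to between 4949 and 7737 under the alternatives tried. It was 5582 with a window of 2.5 kb, 6583 with 0.5 kb, 7737 with peaks of a -log10 q of at least 5, and 6264 to 6304 when a library was left out, and every one of these stayed within 1.5 times of the main count. Chosen after seeing the data were 4963 for the genes of the promoter table, 4949 without genes whose TSS is an ATG, and 6348 with the genes before base 3000000.

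No difference between the genotypes passed an exact test at 0.05, but 9 of the 14 alternatives could not, as leaving out a library or lane allows a p of 0.0667 or 0.1 at the lowest and 3 pairs 0.25. In the other 5 the lowest exact p was 0.229. Signs were not stable. The difference in body peaks per Mb was -0.268 with a -log10 q of at least 5, -0.888 when a broad peak had to contain a narrow one, -0.0870 with equal numbers of peaks per library, -0.576 with the replicate block, and -0.576 to 0.354 when a library was left out. When a broad peak had to contain a narrow one, the differences were -43.1 closed genes with a body peak and 2817 bp in distance, the widest of all. Leaving out a library gave -34.0 to 7.33 for closed genes with a body peak and -226 to 1830 bp for the distance, which was -240 bp over the promoter table genes alone. The replicate numbers 1 to 3 are shared by the genotypes, and the labels do not say whether they mark a pairing. The deviations of same-numbered libraries correlated at -0.123, 0.0297 and -0.123, which cannot decide this. With the replicate block, the differences were -34.0 genes and 1830 bp (exact p 0.25 for each, the smallest that 3 pairs allow), and the limma count stayed at 0. The cause of these sign changes was not tested.

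The limma count among body regions of closed genes was 0 in all 10 other fits, and those with an unadjusted p under 0.05 numbered 63 to 105, against 82 in the fit reported. The body regions called in one genotype alone were 8, 0 at a -log10 q of at least 5 and 15 to 32 when a library was left out, where fewer libraries have to be met or missed.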

Other observations

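For 1280 closed genes only the outer end of the span was known here, and 15.5% of them lay within 2.5 kb of a peak, against 9.31% of the closed genes in the promoter table. Genes whose strand was not known were closed in 76.3% of 304 cases. With the outermost TSS alone 6937 genes would be closed, and 6431 when a broad peak had to contain a narrow one.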
